A study of Mus musculus with 5 samples.

Results

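The oligodendrocyte-enriched microRNAs (miRNAs) mmu-miR-219, mmu-miR-338-3p and mmu-miR-338-5p, named below without the species prefix, were followed across 5 two-colour arrays of mouse hippocampus. They were taken by their exact probe names and make up 3 of the 569 mouse miRNA probes on each array. Each array carried small RNA of 1 Met/Met mouse (Cy3) beside that of 1 Val/Val mouse (Cy5), and the arrays are biological replicates 1 to 5. All mice were adults aged 8 weeks of the 129/Sv strain, and both genotypes carry a knock-in of the human gene for brain-derived neurotrophic factor (BDNF), with methionine in both copies (Met/Met) or valine in both copies (Val/Val) at its common variant site. The question was which hippocampal miRNAs differ between the genotypes. The deposited intensity columns are called Test and Cntrl, and neither the headers nor the labels used here say which genotype each holds. Every ratio is therefore Test over Cntrl, its sign says nothing settled about genotype, and dye and genotype cannot be told apart because no array had its dyes exchanged.

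Oligodendrocytes are the cells that wrap axons of the central nervous system in myelin. Their maturation depends on miRNAs: miR-219 and miR-338 accumulate as progenitors leave the cell cycle, and they repress transcripts that keep progenitors undifferentiated, such as those of the growth factor receptor Pdgfra and the transcription factor Sox6. A miRNA recognises its targets mainly through its seed, bases 2 to 8 from the 5′ end. One hairpin precursor can release a miRNA from each of its arms, and the arms differ in sequence and therefore in targets.

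The 3 mature sequences are shown because the array probes read them directly and because they share no seed, so the members are a group by cell type and not by sequence. Capitals mark the seed.
miR-219: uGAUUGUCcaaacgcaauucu
miR-338-3p: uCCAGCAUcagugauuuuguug
miR-338-5p: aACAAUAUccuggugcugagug

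Each target was identical to a mature miRNA of RefSeq (GRCm38.p6), where miR-219 is listed as miR-219a-5p. No other target on the array had the same seed as a member. The nearest other target lay at an edit distance of 8 for miR-219 (miR-582-5p), 7 for miR-338-3p (miR-7a) and 7 for miR-338-5p (miR-181c), so no probe within an edit distance of 3 could share signal with them. The G and C share was 38.1% for miR-219, 40.9% for miR-338-3p and 45.5% for miR-338-5p, against a mean of 47.9% over the 569 targets.

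Both miR-338 arms come from 1 hairpin, Mir338, which lies on the minus strand of chromosome 11 within the gene Aatk, a kinase of the nervous system. MiR-338-5p spans chr11:120014816-120014837 and miR-338-3p spans chr11:120014781-120014802. The hairpin is shown because the 2 arms, in capitals, gave different ratios on the same arrays.
Mir338: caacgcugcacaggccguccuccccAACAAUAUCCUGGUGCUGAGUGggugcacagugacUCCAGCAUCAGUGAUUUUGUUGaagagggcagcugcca

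MiR-219 has 2 source hairpins that yield the same mature sequence, so the probe cannot tell them apart. Mir219a-1 places it at chr17:34025052-34025072 and Mir219a-2 at chr2:29845689-29845709, both on the minus strand, the second within the annotated span of Cercam. The hairpins are shown with the shared miR-219 in capitals.
Mir219a-1: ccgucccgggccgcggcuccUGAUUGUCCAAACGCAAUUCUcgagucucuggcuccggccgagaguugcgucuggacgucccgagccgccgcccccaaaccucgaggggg
Mir219a-2: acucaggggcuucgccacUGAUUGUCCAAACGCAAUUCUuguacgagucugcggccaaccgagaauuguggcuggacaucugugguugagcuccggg
Each of the 3 loci has a hairpin annotated on the opposite strand, Mir3065 over Mir338, Mir219c over Mir219a-1 and Mir219b over Mir219a-2. None of the mature names of these opposite hairpins is on the array. The match was by name only, and it would miss a miRNA listed under an older name, as miR-219 is for miR-219a-5p.

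The arrays set the following limits. Empty spots had medians between 31.4 and 45.7 intensity units in Test and between 208 and 361 in Cntrl. The 95th percentile of the mismatch control probes lay between 77.8 and 209 in Test and between 379 and 464 in Cntrl. These controls are spike-calibration probes named as mismatches. They serve here as an indirect guide to unspecific binding of sample RNA. The test took in the 568 of 569 miRNAs whose signal in either column passed that of 95% of empty spots on 3 or more arrays. Normalized ratios of replicate 3 ran against those of replicate 5 (Pearson r = −0.56 over 568 miRNAs) and of replicate 1 (r = −0.30), while the other pairs of arrays lay between 0.17 and 0.63. Replicate 5 had the widest ratios, with an SD of 0.40 over the miRNAs, against 0.16 to 0.25 on the other 4 arrays.

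The miR-338 arms were measured far above the mismatch controls, and miR-219 was not. MiR-338-3p, the arm usually described as the functional strand, read 14.2 to 26.6 times the mismatch percentile in Test and 3.92 to 12.9 times in Cntrl. MiR-338-5p read 16.1 to 30.6 times that percentile in Test and 4.42 to 9.26 times in Cntrl. MiR-219 exceeded the empty spots in both columns on all 5 arrays, yet it exceeded the mismatch controls on 0 of 5 arrays in Test and on 1 of 5 in Cntrl. Of the members, only the miR-338 arms thus had clear signal, and the cells it came from were not tested. For miR-219 signal and unspecific binding cannot be told apart.

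**Figure D1:**
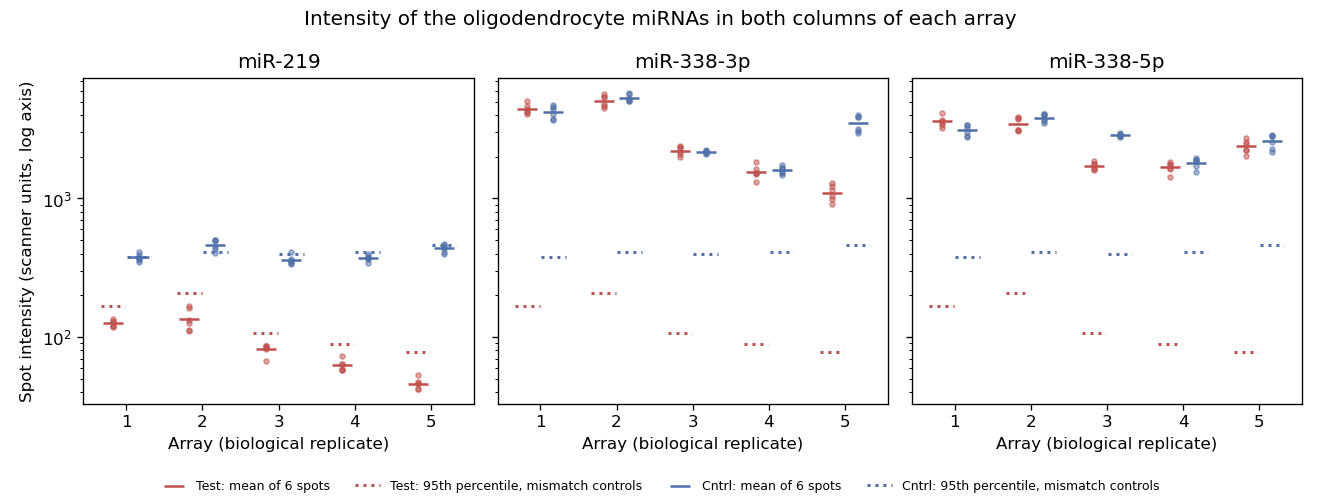
Spot intensity (scanner units, log axis) of each member by array, with Test left of Cntrl. Points are the 6 spots, short solid lines their mean and dotted lines the 95th percentile of the mismatch controls in the same column. MiR-219 lies below the dotted line in Test on all 5 arrays (46.1 to 135 units), while both miR-338 arms lie above it throughout.

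MiR-338-3p gave an intensity of 4437, 5061, 2215, 1561 and 1104 in Test on replicates 1 to 5. In Cntrl it gave 4196, 5344, 2166, 1606 and 3486. The columns were near each other on replicates 1 to 4, and on replicate 5 Test was at 0.317 of Cntrl. After normalization, which removes the trend of all miRNAs with brightness, the log2 ratio was 0.20, −0.08, 0.66, 0.42 and −0.67 on replicates 1 to 5. The arrays therefore did not share a direction: 3 ratios were positive and 2 negative. Replicate 3 ranked 10 from the top of the 568 tested miRNAs and replicate 5 ranked 20 from the bottom.

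The mean log2 ratio of miR-338-3p was 0.11 ± 0.51 (SD, n = 5), a 1.08-fold higher level in Test, with a 95% confidence interval of −0.38 to 0.59. It did not pass the test (limma adjusted p = 0.783 over 568 miRNAs), and the exact two-sided sign-flip test gave p = 0.75, where 5 arrays cannot go below 0.0625. The interval leaves room for a difference of either sign. Leaving out single arrays changed the value most for replicates 3 (−0.03) and 5 (0.30), and the mean was 0.03 without replicate 4. Bulk hippocampal RNA was assayed, so oligodendrocyte number, miRNA per oligodendrocyte and signal from other cells cannot be told apart in any of these values.

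MiR-338-5p, the other arm of the hairpin, gave an intensity of 3602, 3460.3, 1719, 1675 and 2378 in Test on replicates 1 to 5. In Cntrl it gave 3102, 3834, 2865, 1811 and 2585. Here the unnormalized columns stood apart most on replicate 3, where Test was at 0.600 of Cntrl. The normalized log2 ratio was 0.39, −0.09, −0.13, 0.31 and 0.84. It was positive on replicates 1, 4 and 5 and below 0 on replicates 2 and 3, and replicate 5 ranked 19 from the top of 568. Before normalization Test was at 0.924 of Cntrl on replicate 4 and at 0.920 on replicate 5. On these 2 arrays the ratio was thus positive only after normalization.

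The mean log2 ratio of miR-338-5p was 0.26 ± 0.40 (SD, n = 5), or 1.20-fold higher in Test, with a 95% confidence interval of −0.11 to 0.64. It did not pass the test (limma adjusted p = 0.360), and the exact sign-flip test gave p = 0.25. Replicate 5 carried much of the value, which was 0.12 without it. Both miR-338 arms thus had positive means that lay within the spread of their own arrays.

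MiR-219 gave an intensity of 125, 135, 81.7, 62.4 and 46.1 in Test on replicates 1 to 5. In Cntrl it gave 376, 464, 359.9, 373 and 438. Cntrl read higher on all 5 arrays before normalization, as did the empty spots. The normalized log2 ratio was −0.11, −0.45, −0.02, −0.03 and −0.16, so that all arrays kept the same sign and replicate 2 alone went beyond −0.2.

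The mean log2 ratio of miR-219 was −0.15 ± 0.17 (SD, n = 5), or 1.11-fold lower in Test, with a 95% confidence interval of −0.33 to 0.02. It did not pass the test (limma adjusted p = 0.293), and the exact sign-flip test gave p = 0.0625, the smallest value that 5 arrays allow. It was −0.08 without replicate 2. Among all tested miRNAs, 19.7% kept 1 direction on all 5 arrays, so 1 of 3 members doing so is not set apart from the rest.

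**Figure D2:**
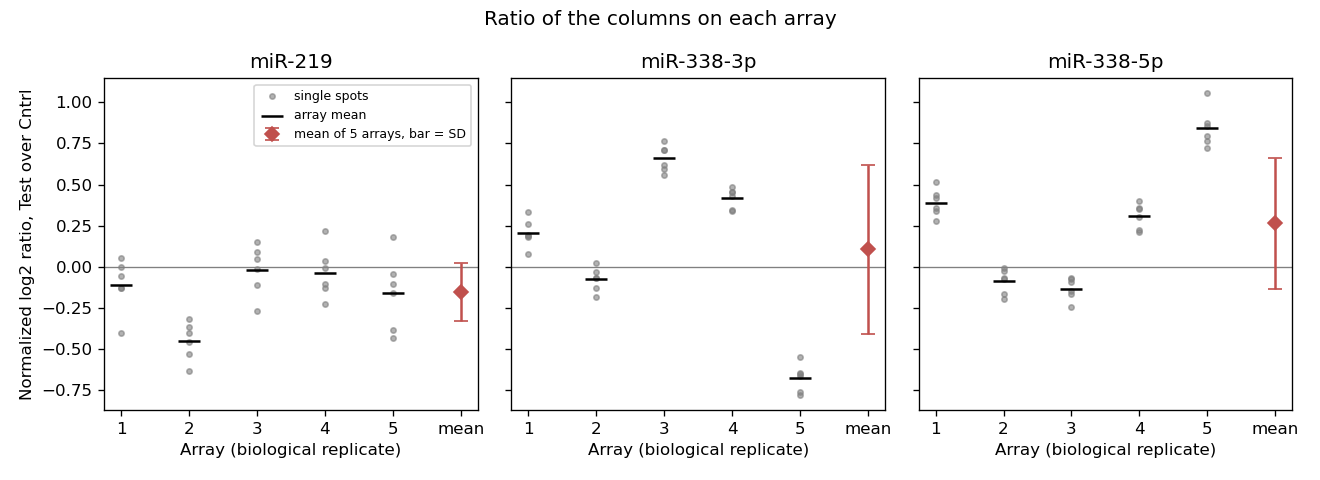
Normalized log2 ratio of Test over Cntrl by array. Grey points are single spots, black lines array means, and the diamond is the mean of 5 arrays with a bar of 1 SD. The miR-338 arms lie on opposite sides of 0 on replicates 3 and 5 (0.66 and −0.67 for miR-338-3p, −0.13 and 0.84 for miR-338-5p), while the array means of miR-219 stay below 0.

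None of the 3 members passed an adjusted p of 0.05, and 0% of the 568 tested miRNAs did. At an unadjusted p of 0.05 in limma the members gave 0 of 3, beside 19.4% of all tested miRNAs (110 of 568). The smallest adjusted p of any miRNA was 0.0577.

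Both miR-338 arms varied more between arrays than the typical miRNA. The SD between arrays was 0.51 for miR-338-3p and 0.40 for miR-338-5p, where the median over 568 miRNAs was 0.12. Brighter miRNAs had larger SDs: among the 245 miRNAs above the mismatch controls in both columns on all arrays the median SD was 0.23, and miR-338-3p ranked 22 and miR-338-5p 47 from the top. MiR-219 had an SD of 0.17. These ranks describe the 5 arrays and were not tested.

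**Figure D3:**
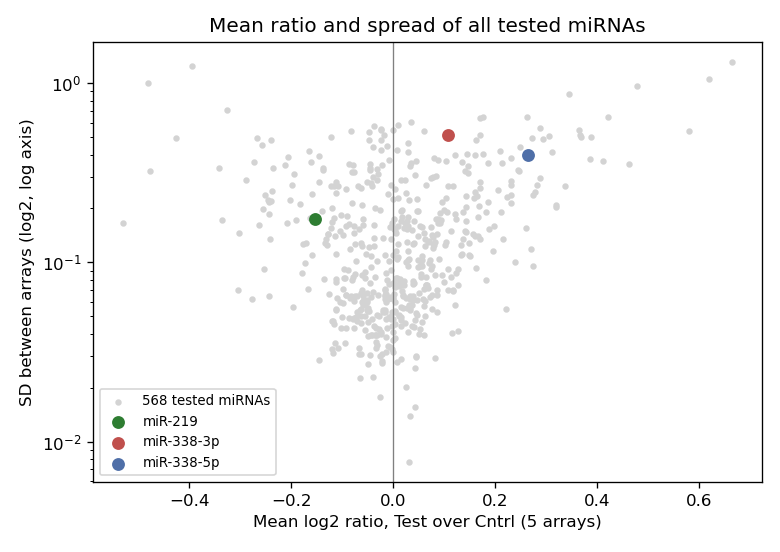
Mean log2 ratio (x axis) and SD between the 5 arrays (y axis, log2, log axis) for each of the 568 tested miRNAs. MiR-338-3p (SD 0.51) and miR-338-5p (SD 0.40) lie in the upper part of the cloud at means of 0.11 and 0.26, and miR-219 (SD 0.17) lies lower and to the left.

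The 6 spots of each probe gave the spread within an array. For miR-338-3p the SD over the spots of an array had a median of 0.08 on the log2 scale, against 0.51 between arrays. For miR-338-5p it had a median of 0.08, against 0.40 between arrays. The spots lie in 2 parts of the array with 3 spots each, and both parts gave the same picture. On replicate 5 the upper spots of miR-338-3p had a ratio of −0.73 and the lower spots −0.62, and those of miR-338-5p had 0.79 and 0.90. On replicate 3 the corresponding values were 0.68 and 0.64 for miR-338-3p and −0.13 and −0.13 for miR-338-5p. The spots of an array share 1 hybridization, so their SD covers the reading of the spots and leaves out labelling, hybridization and the mice. For miR-219 the median spot SD was 0.16, and the SD between arrays was 0.17. In all 3 members the spot SD is that of single spots. The SD between arrays is that of means over 6 spots, so their sizes are not directly comparable.

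The 2 arms of the miR-338 hairpin did not keep step. The ratio of miR-338-3p minus that of miR-338-5p was −0.19, 0.01, 0.79, 0.11 and −1.52 on replicates 1 to 5. The arms lay within 0.2 of each other on replicates 1, 2 and 4, miR-338-3p was higher on replicate 3, and miR-338-5p was higher on replicate 5. The mean difference was −0.16 ± 0.84 (SD, n = 5), with an exact sign-flip p of 0.75 (adjusted p = 0.75 over 3 pairs of members), and it was 0.18 without replicate 5. The difference was positive on 3 arrays and negative on 2, so the 5 arrays did not share a direction. The sign-flip test could not decide on a mean shift between the arms. With 5 arrays its p cannot go below 0.0625, which is above the threshold of 0.05. The size of the swing can be set beside other hairpins with both arms on the array. The SD of the arm difference was 0.84 for miR-338, where the median was 0.17 over 165 hairpins with both arms tested. It was 0.25 over the 39 hairpins with both arms above the mismatch controls. Of these 39, miR-384, named after its value was seen, was the one hairpin with a larger SD (0.90). This is a description over hairpins of the same 5 arrays, with no test.

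The normalized levels of the single columns are built from the mean intensity of both columns and the normalized ratio. They therefore cannot show in which column a change arose. MiR-338-3p had a normalized log2 intensity of 11.74, 11.68, 11.57, 11.35 and 10.83 in Test on replicates 1 to 5, and of 11.54, 11.76, 10.91, 10.93 and 11.50 in Cntrl. Its lowest Test level stood on replicate 5, and its low Cntrl levels stood on replicates 3 and 4. MiR-338-5p had 11.44, 11.10, 11.21, 11.43 and 11.88 in Test and 11.05, 11.19, 11.34, 11.13 and 11.04 in Cntrl. Its highest normalized Test level stood on replicate 5, the same column in which miR-338-3p was lowest. Before normalization the Test intensity of miR-338-5p there was 2378, below the 3602 and 3460.3 of replicates 1 and 2. The groups overlapped for both arms: miR-338-3p averaged 11.43 ± 0.37 in Test and 11.33 ± 0.39 in Cntrl, and miR-338-5p 11.41 ± 0.30 in Test and 11.15 ± 0.12 in Cntrl (SD, n = 5 each).

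**Figure D4:**
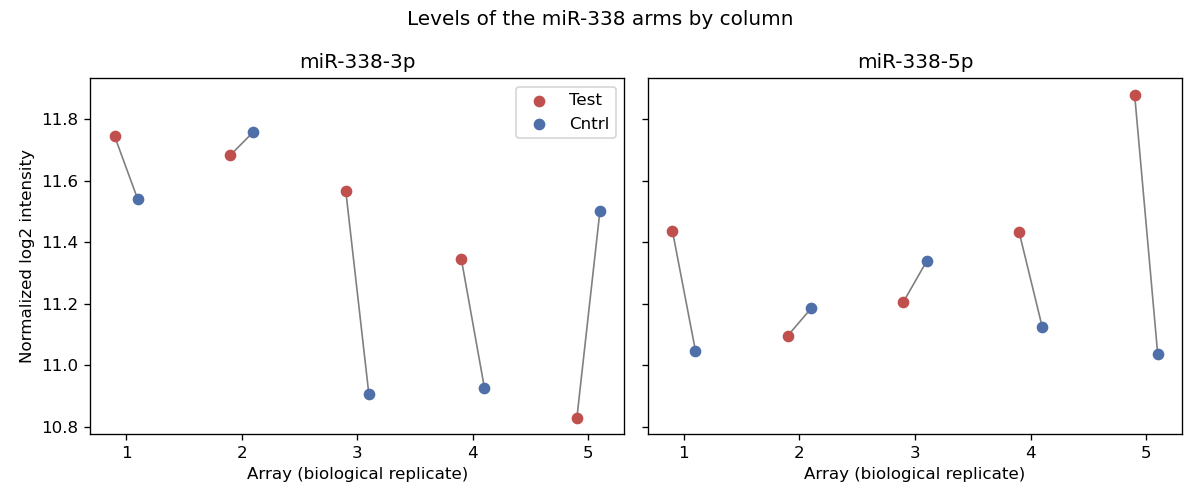
Normalized log2 intensity of the miR-338 arms by array, with Test left of Cntrl and a line joining the columns of an array. On replicate 5 the Test column is the lowest point of miR-338-3p (10.83) and the highest of miR-338-5p (11.88).

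The sign-flip test could not decide whether miR-219 differed from a miR-338 arm. With 5 arrays its p cannot go below 0.0625, which is above the threshold of 0.05. The ratio of miR-219 minus that of miR-338-3p was −0.26 ± 0.46 (SD, n = 5), negative on 4 of 5 arrays (exact sign-flip p = 0.3125, adjusted p = 0.469). That of miR-219 minus miR-338-5p was −0.42 ± 0.40, also negative on 4 of 5 arrays (exact p = 0.125, adjusted p = 0.375). Because miR-219 lay at the level of the mismatch controls, these differences set a dim probe against bright ones.

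Other miRNAs came closest to each member when likeness was measured as the root mean square difference of the 5 array ratios. Nearest to miR-338-3p were miR-101b (0.20), miR-19b (0.22) and miR-598 (0.22), where the median over all others was 0.48. MiR-101b had ratios of −0.11, 0.15, 0.76, 0.24 and −0.73 on replicates 1 to 5. Nearest to miR-338-5p were miR-689 (0.11), let-7d* (0.13) and miR-150 (0.13), against a median of 0.46. MiR-689 had ratios of 0.22, −0.03, −0.24, 0.27 and 0.72. Nearest to miR-219 were miR-455 (0.10), miR-133a (0.10) and miR-133b (0.11), against a median of 0.26, and miR-133a and miR-133b also missed the level of the mismatch controls in at least 1 column on some array.

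Of 13 other miRNAs reported to act in oligodendrocyte progenitors or in myelination, 0 passed an adjusted p of 0.05 in limma and 2 had an unadjusted p below 0.05, both lower in Test. Of all tested miRNAs 10.7% had such a p and were lower in Test. The median ratio of the 13 was −0.00098 and that of all miRNAs 0.0029. MiR-9, abundant in neural tissue and reported in rat to repress the myelin protein transcript Pmp22 in the oligodendrocyte lineage, was at −0.17 ± 0.07 and below 0 on 5 of 5 arrays (limma adjusted p = 0.135). MiR-32, reported to act in myelin lipid metabolism, was at −0.09 ± 0.05 (adjusted p = 0.217) and exceeded the mismatch controls on 0 arrays in either column.

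MiR-23a, which represses lamin B1 and promotes oligodendrocyte differentiation, was at 0.10 ± 0.09 and positive on 4 of 5 arrays (adjusted p = 0.248). MiR-138, reported to rise with miR-219 and miR-338 during differentiation, was at −0.16 ± 0.24 (adjusted p = 0.373). Its ratios of −0.43 on replicate 3 and 0.12 on replicate 5 went the other way from those of miR-338-3p. They had the same signs as those of miR-338-5p (−0.13 and 0.84). MiR-7a, reported to favour the progenitor fate, was at 0.15 ± 0.32, with 0.58 on replicate 5. Of the miR-17-92 group, tied to progenitor growth, miR-92a was at 0.25 ± 0.33, miR-17 at 0.06 ± 0.12, miR-19b at 0.03 ± 0.36 and miR-20a at 0.02 ± 0.17. MiR-124 was at −0.08 ± 0.15, miR-125a-3p at −0.06 ± 0.05, miR-145 at −0.05 ± 0.33 and miR-27a at −0.00098 ± 0.06. In each of the 13 the adjusted p was 0.135 or higher.

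Markers of other cell types were read on replicates 3 and 5, where the miR-338 arms diverged. On replicate 5 the median ratio was 0.70 for 2 choroid plexus markers, 0.34 for 2 endothelial, 0.26 for 4 striated muscle, 0.18 for 4 leukocyte and microglial and 0.07 for 3 red blood cell markers, and −0.25 for 5 neuronal markers. On replicate 3 these medians were 0.06, −0.01, −0.19, −0.06, −0.08 and −0.05 in the same order, all within the SD of 0.25 over the miRNAs of that array. On replicate 5, where that SD was 0.40, the choroid plexus median alone lay beyond it. The 5 markers listed for oligodendrocytes were the 3 members, miR-23a and miR-138. Their median was 0.04 on replicate 5, the value of miR-23a, and −0.02 on replicate 3, the value of the dim miR-219. These medians do not show the miR-338 arms, which on replicate 5 lay at −0.67 (miR-338-3p) and 0.84 (miR-338-5p). Of the 5 neuronal markers, 1 had a positive mean over the arrays. The choroid plexus markers, miR-204 and miR-211, both had positive means over the arrays, 1 of the 2 exceeded the mismatch controls in at least 1 column on 3 or more arrays, and their summed intensity ranged from 24991 to 33025 in Test and from 17406 to 30039 in Cntrl. By the same measure 1 of 4 leukocyte and microglial, 2 of 2 endothelial, 2 of 3 red blood cell, 4 of 4 muscle and 5 of 5 neuronal markers exceeded those controls. Summed intensity of each list, the choroid plexus list included, is not normalized and includes the level of the empty spots. It ranged from 3198 to 14169.7 units in Test and from 4491 to 9840.1 in Cntrl for the red blood cell list. For the muscle list it ranged from 438 to 1573 in Test and from 1679 to 2554 in Cntrl. It ranged from 18687 to 25596 in Test and from 18744 to 23916 in Cntrl for the endothelial list, from 11349 to 17688 in Test and from 10887 to 15396 in Cntrl for the leukocyte and microglial list, and from 133580 to 177559 in Test and from 146897 to 173706 in Cntrl for the neuronal list. None of these markers passed the test. Their part in the miR-338 values was not tested.

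The mean ratios depended on the scaling step more than on any other choice. With each array centred on its median in place of loess, miR-338-5p was at 0.67 (limma adjusted p = 0.013) and miR-219 at −0.29 (adjusted p = 0.020), both past the threshold, while miR-338-3p was at 0.51 (adjusted p = 0.142). In that setting ratios rose with intensity over the 568 miRNAs on all 5 arrays (Pearson r from 0.51 to 0.90), and 248 of 568 miRNAs were called. The bright miR-338 arms moved up and the dim miR-219 moved down. With no normalization, where the median of all miRNAs was −0.77, the mean ratio was −0.22 for miR-338-3p, −0.06 for miR-338-5p and −1.01 for miR-219. The difference between the miR-338 arms was −0.16 in both of these settings.

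**Figure D5:**
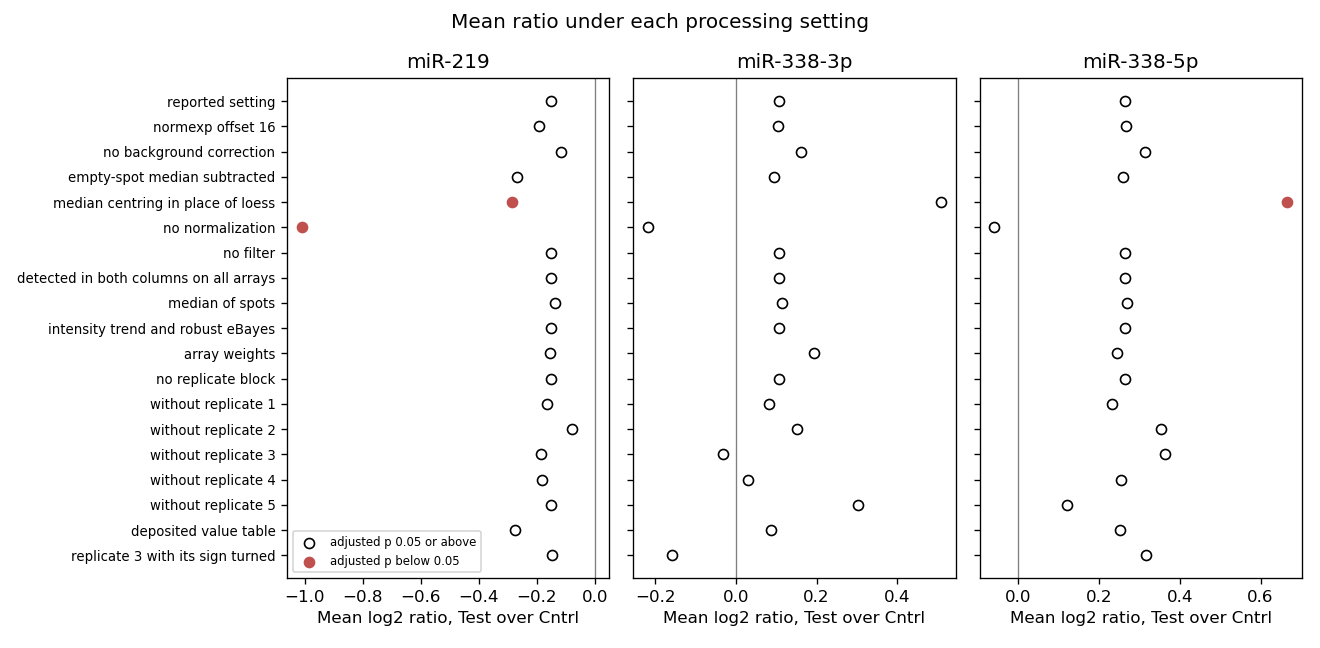
Mean log2 ratio of Test over Cntrl for each member (x axis) under the reported and the alternative settings (rows). Filled points have an adjusted p below 0.05: miR-219 with median centring (−0.29) and with no normalization (−1.01), and miR-338-5p with median centring (0.67).

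The authors' deposited value table, on a log2 scale with the direction of Test over Cntrl, held values close to these for the bright arms. MiR-338-3p stood there at 0.15, −0.09, 0.67, 0.43 and −0.71 on replicates 1 to 5, and miR-338-5p at 0.37, −0.09, −0.14, 0.31 and 0.82. MiR-219 stood at −0.18, −0.66, 0.03, −0.13 and −0.44, farther from 0 than in the reported fit on 5 of 5 arrays and with the sign turned on replicate 3. Its mean there was −0.28 (limma adjusted p = 0.320).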

How the data were processed

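The authors deposited 1 table per array of linear spot intensity, per the file headers: a foreground mean and SD for a Cntrl and a Test column and background columns that are 0 throughout. Their values show no normalization between the columns. Per the labels' protocols, RNA came from a mirVana isolation and each genotype's small RNA had 1 dye. Scanner, filters and platform are not stated in these sources. The authors' second deposited table holds processed log2 values, a scale found from the values. Set against the normalized ratios of the 113 miRNAs with a mean log2 intensity above 11, it had slopes of 0.97 to 1.01 and r of 0.98 to 1.00, so it runs as Test over Cntrl. Its columns have medians of −0.04 to −0.02, and its background and normalization steps stay unknown.

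Here intensities were corrected with normexp (offset 50) and loess within each array, giving control spots weight 0. Probe means over 6 spots entered an intercept model in limma 3.58.1 under R 4.3.3, with eBayes and two-sided tests, with Benjamini-Hochberg adjustment over 568 miRNAs at 0.05. The within-array ratio carries the pairing of mice. Levels of single columns were scaled with Aquantile. P-values reflect how much the ratios varied between arrays, as moderated by eBayes, and the number of arrays limits the precision. No pair of mice was repeated on another array. Variation of the mice therefore cannot be told apart from that of labelling and hybridization. The fit was tested on simulated data with independent errors for each miRNA, and whether this holds for the arrays was not tested. The members, lists and rules were chosen with earlier results of these data known: named are the members, the 3 miRNAs nearest to each, the 13 miRNAs of the oligodendrocyte-lineage list and markers by cell type. Alternatives covered background, scaling, filters, spot summary, variance model, weights, pairing, single arrays and the deposited table, and, chosen after seeing the data, replicate 3 with its sign turned. Figures were drawn with matplotlib 3.10.9. Sequences and positions are from RefSeq (GRCm38.p6). The array tables name no build, and targets were matched by sequence.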

Additional observations from a re-analysis of the deposited data

How the results depend on the processing

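Depth was limited by signal over background for miR-219 and by 5 arrays for all members. The mean of miR-219 was below 0 in all 18 alternatives, from −1.01 to −0.08. It passed the threshold with median centring (−0.29) and with no normalization (−1.01). MiR-338-5p kept its sign in 17 of 18 alternatives, passed with median centring (0.67) and turned to −0.0596 with no normalization. MiR-338-3p turned to −0.22 with no normalization and to −0.16 with the sign of replicate 3 turned, and ranged from −0.0313 to 0.302 with single arrays left out, turning without replicate 3. The difference miR-338-3p minus miR-338-5p ranged from −0.39 to 0.18 with single arrays left out, turning without replicate 5. The difference miR-219 minus miR-338-3p was 0.0106 with the sign of replicate 3 turned. Without the replicate block, with both columns as separate samples, the ratios were −0.15 for miR-219, 0.11 for miR-338-3p and 0.26 for miR-338-5p, and no member passed. Members past the threshold numbered 2 with median centring and 1 with no normalization, and 0 in the other 17 alternatives. The 13 other lineage miRNAs gave 9 and 5 in those settings and 0 otherwise. Over all miRNAs the count was 0 as reported, 248 with median centring, 442 with no normalization, 4 with robust eBayes and an intensity trend, 21 with array weights, 2 with offset 16, 2 with the deposited value table, 1 without the replicate block and 9 at an adjusted p of 0.10. It ranged from 0 to 5 with single arrays left out, and was 5 without replicate 3. The cause of these changes was not tested, and the trend of ratios with intensity given above is a description.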
